A study of Mus musculus with 12 samples.

Results

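The nuclear-coded genes of the mitochondrial respiratory chain and of ATP synthase were followed in macrophages sorted from mouse bone marrow. The members were taken by symbol, as all rows of the count table that begin with the family names of complexes I to V (Nduf, Sdh, Uqcr with Cyc1 and Cycs, Cox4 to Cox8, and Atp5). This gave 94 of 23420 rows. They were grouped as 43 under complex I, 4 under complex II and 10 under complex III with its electron carrier. Complex IV took 20 and complex V took 17. The 17 include Atp5s and Atp5sl, which RefSeq names Dmac2l and Dmac2. These were placed there by symbol and are not counted among the 15 complex V subunits. A low-count filter left 88 of the 94 for testing. The macrophages came from 2 mice of C57BL/6 background, numbered 7 and 19. In each mouse the tibia had received mesenchymal stromal cells (MSCs), the fibroblast-like support cells of the marrow, and the femur had not. Each bone of each mouse gave 3 libraries, so 6 libraries were from treated tibias and 6 from untreated femurs. The labels call the tibia cells MSC-educated macrophages. The series title speaks of a leukemia bone marrow, while the disease state of these animals, their age, the source of the MSCs and the time after treatment are not stated there. Treatment always went with the tibia and its absence with the femur, so treatment and bone cannot be told apart. The labels also do not say whether the 3 libraries of a bone came from separate sorts, so p-values over libraries measure a spread that may be technical.

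Complex I takes electrons from NADH and complex II takes them from succinate. Complex III passes them to cytochrome c, and complex IV hands them to oxygen. Complexes I, III and IV pump protons out of the matrix as they work, and complex V, the ATP synthase, lets protons back through a rotating ring of c subunits to make ATP. In macrophages the balance between this respiration and glycolysis is known to shift with the activation state. The subunits coded in mitochondrial DNA are not analysed here.

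Total counts ran from 9773455 to 14869150 per library. The 9 macrophage and monocyte markers together stood at 20673 to 21230 CPM (a gene's counts over the scaled total of its library) in the femur of mouse 7. They stood at 18664 to 19318 CPM in its tibia. In mouse 19 they stood at 17735 to 18213 CPM in the femur and 17279 to 18224 CPM in the tibia. A sum over genes does not show each marker on its own. Markers of other marrow cells were present too. The summed CPM of 7 neutrophil genes was 15322 to 16888 in the femur and 15685 to 16987 in the tibia of mouse 7, and 23038 to 26581 and 26002 to 28175 in those of mouse 19. The neutrophil sum lay below the macrophage and monocyte sum in every library of mouse 7 and above it in every library of mouse 19. The muscle list reached at most 0.592 CPM in a library. In bulk RNA of this kind, fewer cells of a type and less RNA per cell cannot be told apart.

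In the untreated femur the highest level per kilobase of mRNA belonged to Cox4i1, a nuclear-coded subunit that stabilises cytochrome c oxidase. Its level was 351 ± 20.9 CPM per kb (SD, n = 6 libraries pooled over 2 mice). Atp5b, the catalytic beta subunit of ATP synthase, followed at 339 ± 28.3 CPM per kb, which lies within the spread of Cox4i1. Atp5a1, its alpha partner in the F1 head, stood at 284 ± 20 CPM per kb. Cox8a, a small membrane subunit, stood at 268 ± 19.3 CPM per kb, which lies within the pooled SD of Atp5a1. The same 6 libraries gave all these levels, and the genes were not compared library by library. Cox4i1 and Atp5a1 each share a near-identical stretch with another annotated gene (Emc8 and Haus1), so their levels and ranks are uncertain. The leading genes of the other complexes were lower. Uqcrh, the hinge protein of complex III, had 173 ± 17.5 CPM per kb. Ndufa6, an accessory subunit of complex I, had 144 ± 8.06 CPM per kb. In complex II the iron-sulfur subunit Sdhb had 92.8 ± 6.88 CPM per kb, the anchor Sdhd 84.6 ± 3.76 and the flavoprotein Sdha 76.7 ± 2.08, while the other anchor, Sdhc, had 21.6 ± 2.38. At the bottom of complex I stood the assembly factor Ndufaf4, at 2.54 ± 0.562 CPM per kb.

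**Figure D1:**
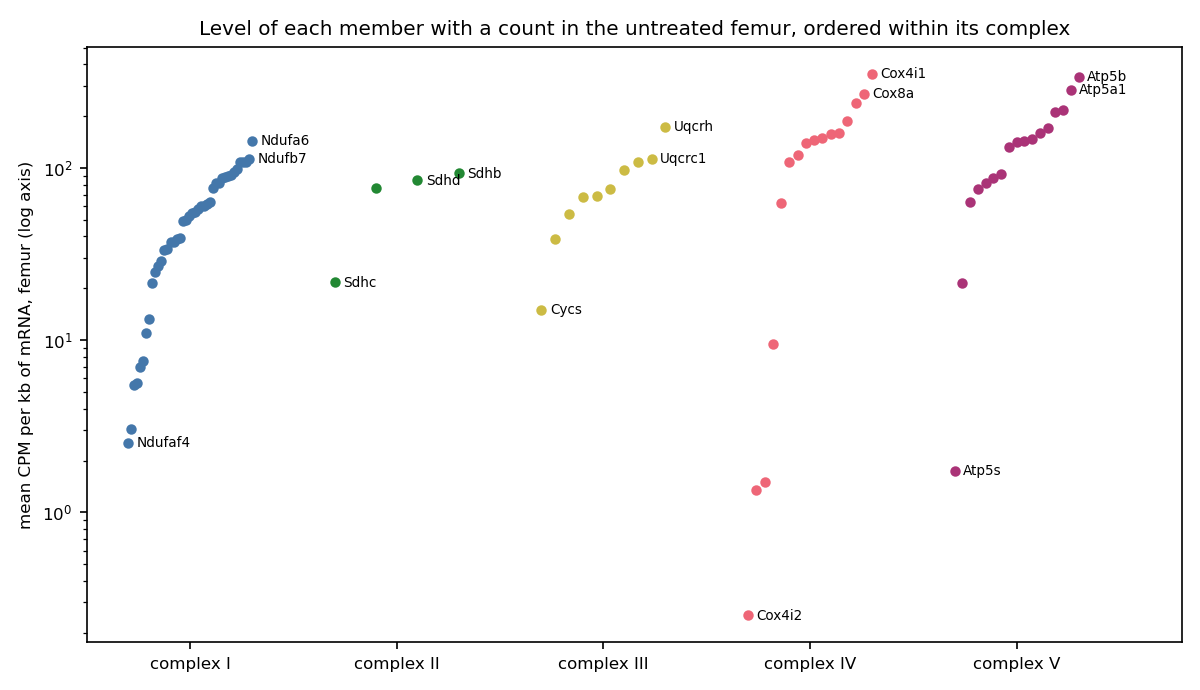
Mean CPM per kb of mRNA in the 6 untreated femur libraries on a log axis, with 1 point per member that had a count there, ordered from low to high within complexes I to V. Cox4i1 at 351 and Atp5b at 339 CPM per kb lead, and the lowest points are tissue isoforms and assembly factors.

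Complex IV showed which isoforms the sorted cells used. The broadly expressed forms Cox4i1, Cox6a1, Cox6b1, Cox7a2 and Cox8a had at least 70.8 CPM in every library. Their heart, muscle, lung or testis counterparts were much lower, and all but Cox6b2 stayed near the floor. Cox8b, Cox8c and Cox7b2 had 0 counts in all 12 libraries, which allows up to 6 counts a library, or 0.404 to 0.617 CPM. Cox4i2, the lung and oxygen-responsive form, had 28 counts in all and at most 8 in a library, and Ndufa4l2, the hypoxia-linked relative of Ndufa4, had 2 counts in all. The heart and muscle forms Cox6a2 and Cox7a1 reached at most 1.91 CPM and 1.20 CPM in a library. Cox6b2, the testis form, was the most abundant of these, with 35 to 82 counts a library. It had 4.14 ± 1.14 CPM in the femurs and 4.56 ± 1.03 CPM in the tibias (SD, n = 6 libraries pooled over 2 mice). Ndufs5, a complex I accessory subunit, also had 0 counts in all 12 libraries. Its annotated transcripts share a stretch of at least 100 bases at 98% identity or more with BC002163, which had 117 counts over the 12 libraries, so the level of Ndufs5 cannot be read from this table.

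Most members were slightly higher in the treated tibia. Summed over all members, the femur libraries of mouse 7 had 6915, 7148 and 7485 CPM and its tibia libraries 7607, 7862 and 7924 CPM. In mouse 19 the femur libraries had 7700, 7806 and 7857 CPM and the tibia libraries 7826, 8233 and 8402 CPM. The tibia libraries did not overlap the femur libraries of the same mouse in mouse 7, and in mouse 19 the lowest tibia library lay inside the femur range. The mean sum was 8.57% higher in the tibia of mouse 7 and 4.70% higher in that of mouse 19. By complex, the sum in mouse 7 was higher by 6.54% for complex I, 8.80% for II, 8.68% for III, 8.45% for IV and 9.95% for V. In mouse 19 the same differences were 5.13%, 3.24%, 2.90%, 7.52% and 3.78%. Tibia library 3 of mouse 19 had the lowest sum of the 3 tibia libraries of that mouse in every complex.

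**Figure D2:**
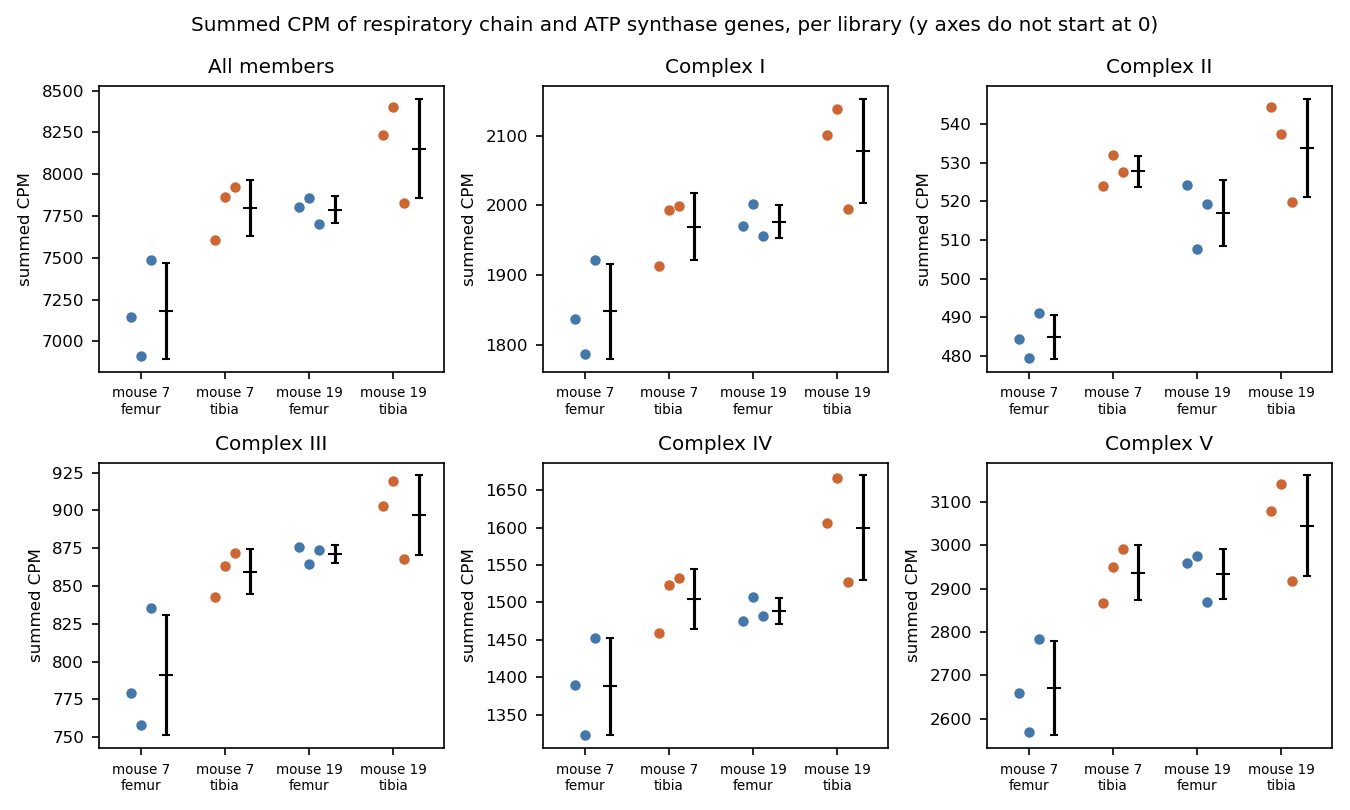
Summed CPM of the members, in all and by complex, with 1 point per library (blue femur, orange tibia) and the mean ± SD of each 3 libraries in black. In mouse 7 all tibia points lie above all femur points for all members together and for complexes II to V, while in mouse 19 the lowest tibia library falls within the femur range of the summed members.

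Across both mice, edgeR's quasi-likelihood test with the mouse as a term called 16 of the 88 tested members higher in the treated tibia (Benjamini-Hochberg adjusted p under 0.05 over all 11806 genes) and 0 lower. Of all genes tested, 3.51% were called higher and 3.69% lower. At an unadjusted p under 0.05, 42 members were positive and 0 negative, beside 9.60% and 11.2% of all genes, and DESeq2 also called 0 lower. The median log2 change of the members was 0.10 against 0.00 for all genes tested, and 77 of 88 (87.5%) were above 0, beside 49.2% of all genes. Like shares were above 0 among mitochondrial ribosomal protein genes (67 of 76, 88.2%) and cytosolic ones (83 of 92, 90.2%). In 14 members every tibia library exceeded every femur library of the same mouse in both mice, as was so for 2.44% of all genes. With counts summed per mouse and bone, so that the animal is the unit, edgeR called 0 members higher, against 0.407% of all genes. The 88 members are too few to set that 0 apart from this share, and 1 column per mouse and bone leaves few degrees of freedom. On those sums 20 members had an unadjusted p under 0.05, all higher, beside 5.11% of all genes higher and 5.18% lower, and the smallest adjusted p of a member was 0.0794. The count of 16 also moved with single libraries, and so did the count of 414 over all genes. Leaving out femur library 1 of mouse 7 gave 8 (301 over all genes), and femur library 2 gave 7 (311). Leaving out tibia library 2 or 3 of that mouse gave 7 (321 and 284). In mouse 19, leaving out tibia library 2 gave 10 (324) and tibia library 3 gave 25 (498). In each of the 12 fits with a library left out, 5 of these members were called, namely Atp5g1, Atp5g3, Cox5a, Cox5b and Cox7b.

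**Figure D3:**
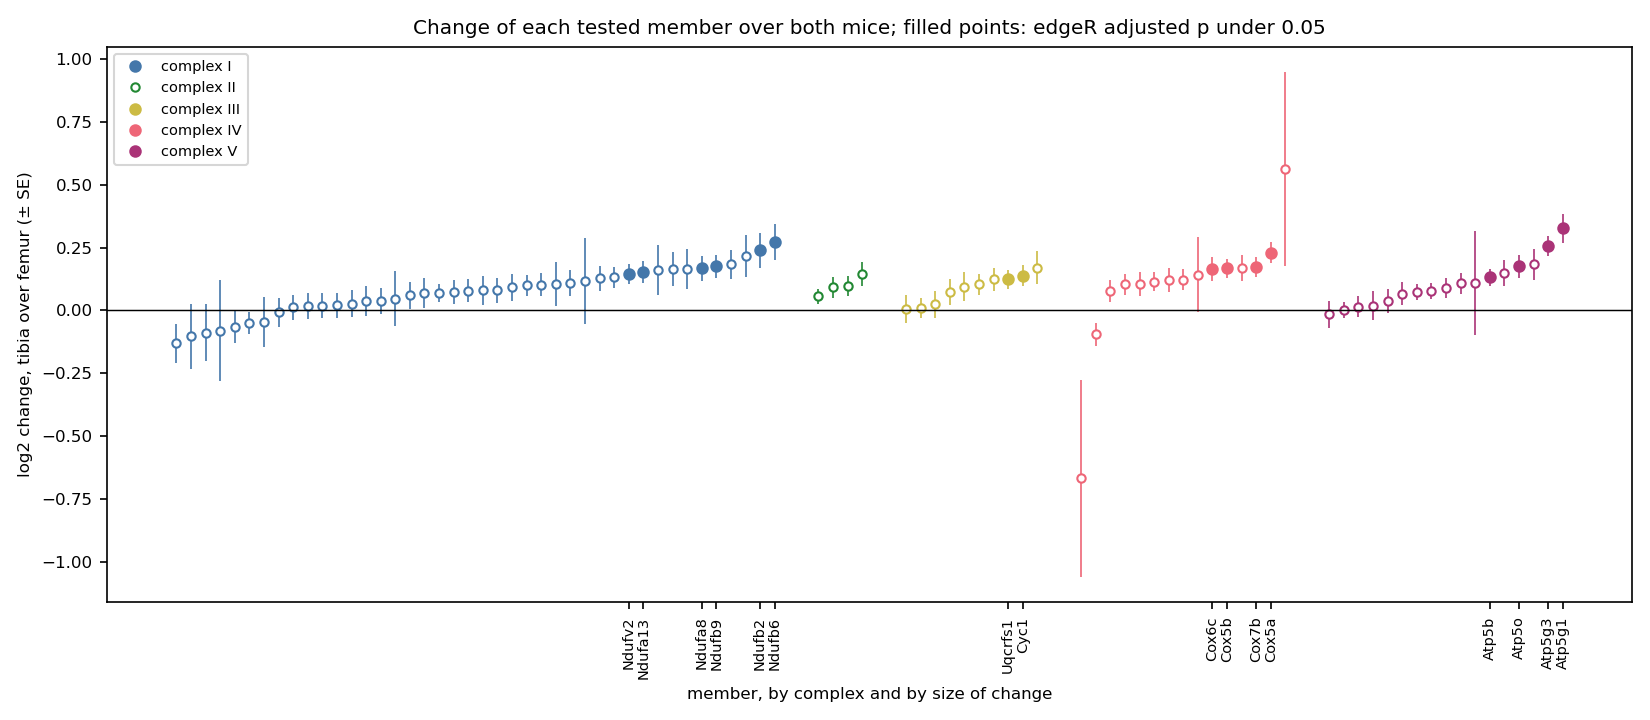
Log2 change of each tested member, tibia over femur over both mice, with its standard error, ordered by size within each complex; filled points, named on the axis, have an edgeR adjusted p under 0.05. The 16 filled points are all above 0, and none belongs to complex II.

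In complex V, 4 of 17 tested members rose and 0 fell, with a median log2 change of 0.09. All 4 were among its 15 subunits, which leave out Atp5s and Atp5sl. The largest change was in the c ring, the rotor through which protons pass. Its genes Atp5g1, Atp5g2 and Atp5g3 code for the same mature c subunit behind different import sequences. Atp5g1 had 32.4, 35.3 and 32.0 CPM in the femur libraries of mouse 7 and 40.8, 45.3 and 44.8 CPM in its tibia libraries. The mouse 19 libraries had 43.9, 43.3 and 39.6 CPM in the femur and 53.6, 53.3 and 44.8 CPM in the tibia. All tibia libraries lay above the femur libraries of the same mouse, although the femur of mouse 19 reached the level of the tibia of mouse 7. The log2 change was 0.33 ± 0.06 (SE, adjusted p = 0.000771), a 1.25-fold difference of means, and adjusted p was 0.000104 to 0.00346 when each library in turn was left out. On sums per animal its adjusted p was 0.0794.

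Atp5g3, the most abundant c-ring gene, had 101, 94.2 and 97.1 CPM in the femur of mouse 7 and 118, 116 and 123 CPM in its tibia. Mouse 19 had 116, 114 and 109 CPM in the femur and 130, 143 and 123 CPM in the tibia. The bones again did not overlap within either mouse. The log2 change was 0.26 ± 0.04 (adjusted p = 0.000324, and 0.0883 on sums per animal). Atp5g2 ran from 54.8 to 62.5 CPM in the femurs and from 55.9 to 67.9 CPM in the tibias. Its bones overlapped in both mice, and its log2 change was 0.04 ± 0.05 (adjusted p = 0.728). Per length of mRNA, Atp5g2 made up 28.2 ± 1.57% (SD, n = 6) of the c-ring transcripts in the femurs and 24.9 ± 1.55% in the tibias. These SDs pool libraries of 2 mice, so they mix library and mouse differences. In mouse 7 its share was 27.7, 29.4 and 30.6% in the femur and 24.6, 27.3 and 25.0% in the tibia. In mouse 19 it was 26.6, 26.8 and 27.8% in the femur and 25.5, 22.6 and 24.2% in the tibia. Over both mice, Atp5g1 made up 21.5 ± 1.37% in the femurs and 23.3 ± 0.919% in the tibias, and Atp5g3 50.3 ± 1.13% and 51.8 ± 1.74%. Whether the change of Atp5g2 differs from those of the other c-ring genes was not tested.

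**Figure D4:**
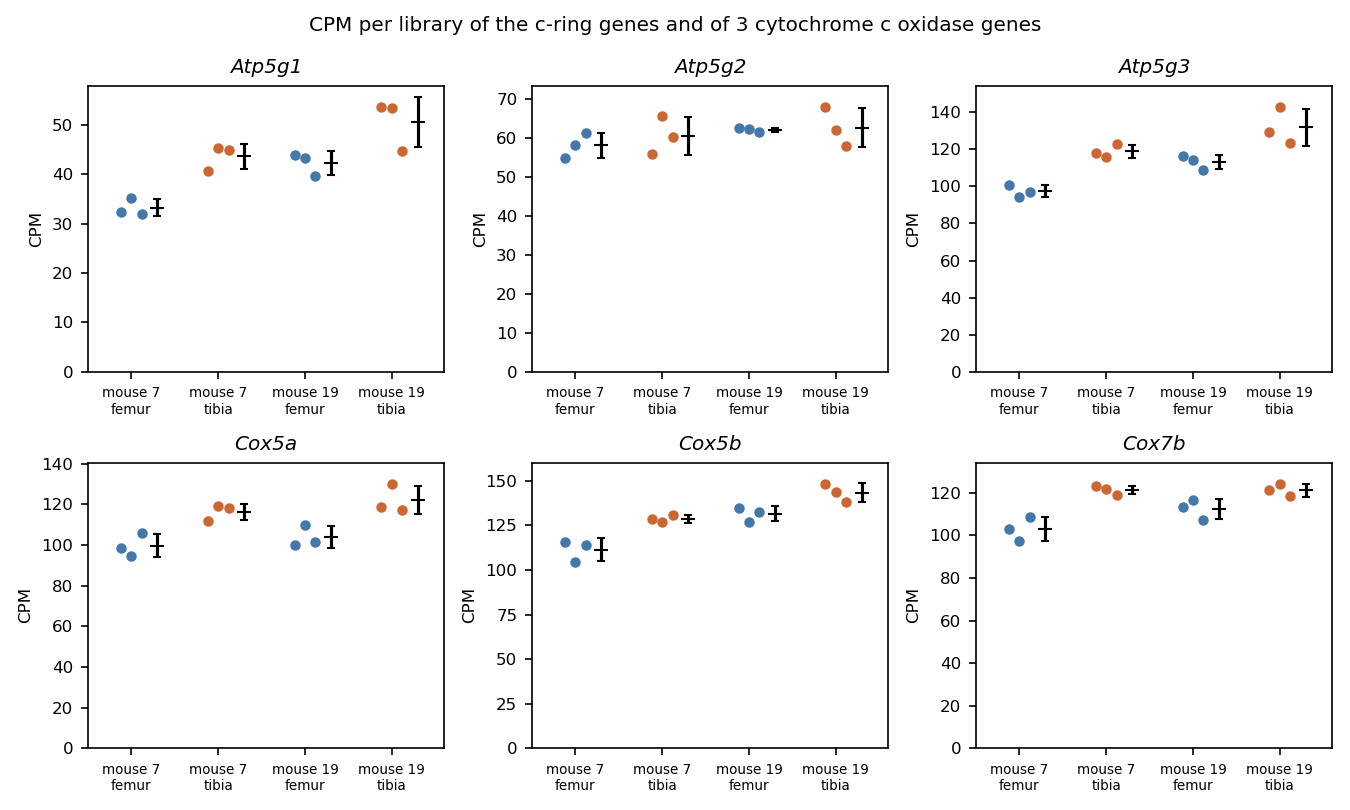
CPM per library (blue femur, orange tibia, mean ± SD of 3 libraries in black, axes from 0) of the c-ring genes Atp5g1, Atp5g2 and Atp5g3 and of Cox5a, Cox5b and Cox7b. All but Atp5g2 have every tibia point above every femur point of the same mouse.

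The promoters of the c-ring genes are shown because these genes make the same protein, and Atp5g1 and Atp5g3 were called while Atp5g2 was not. Each window runs from 250 bases before to 50 after the annotated start, 5′ to 3′ on the gene's strand, from RefSeq (GRCm38.p6). Capitals mark the core motif of NRF1, a factor known to bind promoters of respiratory genes. Atp5g1 lies at chr11:96075582-96075881, Atp5g2 at chr15:102670998-102671297 and Atp5g3 at chr2:73911277-73911576, all on the minus strand.
Atp5g1: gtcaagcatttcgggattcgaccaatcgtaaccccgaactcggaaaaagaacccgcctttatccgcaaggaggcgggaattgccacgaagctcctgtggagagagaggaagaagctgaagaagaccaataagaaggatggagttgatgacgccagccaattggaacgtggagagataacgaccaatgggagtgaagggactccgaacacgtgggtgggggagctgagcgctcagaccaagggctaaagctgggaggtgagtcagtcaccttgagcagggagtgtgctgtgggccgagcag
Atp5g2: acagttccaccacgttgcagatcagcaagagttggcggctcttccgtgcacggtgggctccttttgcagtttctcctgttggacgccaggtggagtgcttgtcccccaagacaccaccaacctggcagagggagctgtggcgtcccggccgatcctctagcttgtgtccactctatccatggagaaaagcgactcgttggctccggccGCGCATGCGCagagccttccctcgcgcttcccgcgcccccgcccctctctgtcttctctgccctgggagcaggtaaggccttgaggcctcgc
Atp5g3: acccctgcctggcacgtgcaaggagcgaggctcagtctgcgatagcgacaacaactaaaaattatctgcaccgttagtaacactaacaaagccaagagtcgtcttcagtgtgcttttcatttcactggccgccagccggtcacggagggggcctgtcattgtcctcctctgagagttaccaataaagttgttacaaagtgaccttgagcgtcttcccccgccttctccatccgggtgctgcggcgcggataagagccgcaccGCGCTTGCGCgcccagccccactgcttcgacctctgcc
The Atp5g1 window held no NRF1 core motif, the Atp5g2 window held it with its first base 42 bases before the start, and the Atp5g3 window held it 13 bases after. Of the called genes, Atp5g3 thus held it and Atp5g1 did not.

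The other complex V calls were smaller. Atp5b rose by 0.13 ± 0.03 on the log2 scale (adjusted p = 0.0187). It had 589, 577 and 651 CPM in the femur of mouse 7 against 685, 710 and 703 CPM in the tibia. In mouse 19 the femur had 695, 702 and 681 CPM and the tibia 725, 730 and 702.5 CPM. The bones were clear of each other in mouse 7 and all but touched in mouse 19. Atp5o, the peripheral stalk subunit that holds the head still, rose by 0.18 ± 0.05 (adjusted p = 0.0240). Both calls were lost without either of femur libraries 1 and 2 or tibia libraries 2 and 3 of mouse 7. Atp5o was also lost without tibia library 2 of mouse 19. Of the rest of the head, Atp5a1 had a log2 change of 0.08 ± 0.03 (adjusted p = 0.158) and the central gamma subunit Atp5c1 had 0.00 ± 0.03 (adjusted p = 0.986). The delta and epsilon subunits Atp5d and Atp5e had 0.02 ± 0.04 and 0.07 ± 0.04.

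In complex IV, 4 of 15 tested members rose and 0 fell, with a median log2 change of 0.12. Cox5a, a nuclear-coded subunit on the matrix face of the oxidase, had 98.4, 94.9 and 106 CPM in the femur of mouse 7 and 112, 119 and 118 CPM in its tibia. For mouse 19 the values were 99.99, 110 and 101 CPM in the femur and 119, 130 and 117 CPM in the tibia. Its bones did not overlap within either mouse, and the change was of like size in both, at 0.22 ± 0.06 in mouse 7 and 0.23 ± 0.06 in mouse 19. Over both mice it was 0.23 ± 0.04 (adjusted p = 0.00111, and 0.134 on sums per animal). Cox5b, the zinc-binding partner of Cox5a, had 116, 104 and 114 CPM against 128, 127 and 131 CPM in mouse 7. Libraries of mouse 19 had 135, 127 and 133 CPM in the femur and 148, 144 and 138 CPM in the tibia. There was no overlap within either mouse, and the log2 change was 0.17 ± 0.04 (adjusted p = 0.00805, and 0.310 on sums per animal).

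Cox7b, a small membrane subunit of the oxidase, had 103, 97.3 and 109 CPM in the femur of mouse 7 against 123, 122 and 119 CPM in the tibia. The mouse 19 libraries had 113, 116 and 107 CPM against 121, 124 and 118 CPM. The log2 change was 0.17 ± 0.04 (adjusted p = 0.00888, and 0.329 on sums per animal), again with no overlap within either mouse. Cox6c, another membrane subunit, rose by 0.16 ± 0.05 (adjusted p = 0.0339), but its bones overlapped in both mice and the call held in only 4 of the 12 fits with a library left out. Cox7a2l, which is known to join complexes III and IV into supercomplexes, had the lowest value of complex IV outside the tissue isoforms, at -0.10 ± 0.05 (adjusted p = 0.243). Cox6a2, near the floor, had the lowest fitted value of complex IV, -0.67 ± 0.39 (adjusted p = 0.348).

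In complex III, 2 of 10 tested members rose and 0 fell. They were the catalytic pair Cyc1, which is cytochrome c1, and Uqcrfs1, the Rieske iron-sulfur protein. Cyc1 had 77.0, 75.3 and 80.3 CPM in the femur of mouse 7 and 86.0, 92.9 and 91.5 CPM in its tibia. Mouse 19 had 89.0, 88.01 and 85.9 CPM in the femur and 89.3, 91.3 and 93.4 CPM in the tibia. The gap was wide in mouse 7 and narrow in mouse 19, and the log2 change over both was 0.14 ± 0.04 (adjusted p = 0.0442). Uqcrfs1 changed by 0.12 ± 0.04 (adjusted p = 0.0481), also with no overlap within either mouse. Cyc1 was called in 4 and Uqcrfs1 in 2 of the 12 fits with a library left out, and DESeq2 gave adjusted p values of 0.0291 and 0.0281. With the replicate number as a block edgeR gave 0.0631 and 0.0671, and Uqcrfs1 also missed the threshold with RLE scaling (0.0525) and with no filter on low counts (0.0631). Uqcrc1 and Uqcrc2, the paired core proteins of the complex, had 0.10 ± 0.04 (adjusted p = 0.132) and 0.01 ± 0.04 (adjusted p = 0.943). Cycs, the mobile electron carrier cytochrome c, had 0.02 ± 0.05 (adjusted p = 0.849), and Uqcrh had the lowest value, 0.01 ± 0.06.

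In complex II, 0 of 4 members were called over both mice in edgeR or DESeq2. Over all genes edgeR called 3.51% higher and 3.69% lower, so with 4 genes that 0 cannot be set apart. At an unadjusted p under 0.05 in edgeR, 3 had a positive change, beside 9.60% of all genes. All 4 changes were positive, from 0.06 ± 0.03 for Sdha to 0.14 ± 0.05 for Sdhc (adjusted p = 0.331 and 0.0676). In mouse 7 every tibia library lay above every femur library for all 4 genes, beside 12.2% of all genes. In mouse 19 this was so for 0 of 4, beside 10.8%, and 4 genes are too few to set that 0 apart from this share. The Sdhc libraries of mouse 7 had 57.6, 63.1 and 68.5 CPM in the femur and 70.3, 72.7 and 76.2 CPM in the tibia.

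In complex I, 6 of 42 tested members rose and 0 fell, all 6 among its 35 subunits, whose median log2 change was 0.09. The 7 assembly factors had a median of -0.08 with 5 values under 0, and 0 calls in either direction in edgeR, in DESeq2 or at an unadjusted p under 0.05. Over all genes edgeR called 3.51% higher and 3.69% lower, and 9.60% and 11.2% were positive and negative at the unadjusted threshold. With 7 genes the 0 calls cannot be set apart from those shares. The difference between subunits and assembly factors was not tested. The called members were the core iron-sulfur subunit Ndufv2 and the accessory subunits Ndufb6, Ndufb2, Ndufb9, Ndufa8 and Ndufa13. Ndufb6, an accessory subunit of the membrane arm, had 22.2, 23.4 and 19.8 CPM in the femur of mouse 7 and 25.0, 24.9 and 31.0 CPM in its tibia. For mouse 19 the values were 21.4, 23.3 and 21.6 CPM in the femur and 26.3, 27.4 and 24.3 CPM in the tibia. Its bones did not overlap within either mouse, and the log2 change was 0.27 ± 0.07 (adjusted p = 0.0200). In mouse 7, femur library 3 and tibia library 3 were each needed for the call, at an adjusted p of up to 0.0728.

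Ndufb2, Ndufb9, Ndufa8 and Ndufa13 changed by 0.15 to 0.24 on the log2 scale (adjusted p from 0.0214 to 0.0444), and each held its call in 2 to 8 of the 12 fits with a library left out. Ndufv2, which sits in the electron-entry arm, had 85.4, 81.5 and 90.7 CPM in the femur of mouse 7 and 99.8, 97.9 and 95.5 CPM in its tibia. Libraries of mouse 19 had 96.1, 98.9 and 98.5 CPM in the femur and 109, 104 and 102 CPM in the tibia. The bones did not overlap, and the log2 change was 0.15 ± 0.04 (adjusted p = 0.0247). The core subunits Ndufs1, Ndufs3, Ndufs7, Ndufs8 and Ndufv1 had changes of 0.03 to 0.10 and were not called. Ndufaf3 had the lowest value of complex I, -0.13 ± 0.08 (adjusted p = 0.352).

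Promoter windows were found for 77 members, with 83 windows in all. The NRF1 core motif, searched on both strands, was in 24.1% of the members' windows, against 10.1% of the windows of tested genes and 4.6% of all windows. The YY1 motif AAGATGGCG was in 10.8% against 3.12% and 1.40%, and the ETS motif CCGGAAG in 20.5% against 18.2% and 8.86%. No match of one of these 3 motifs overlapped a match of another in the members' windows. The CCAAT box (CCAAT) was in 43.4% of the members' windows against 38.2% of those of tested genes and 37.4% of all, and the GC box (GGGGCGGGG) in 15.7% against 20.8% and 11.4%. A match is a description and not a bound site. Among tested members with a window, the NRF1 core was in 3 of 13 called and 15 of 61 other members, the ETS motif in 1 of 13 and 16 of 61, the YY1 motif in 0 of 13 and 8 of 61, the CCAAT box in 6 of 13 and 28 of 61, and the GC box in 3 of 13 and 10 of 61. Windows of complex I members are shown with the NRF1, ETS and YY1 matches in capitals. Ndufb6, at chr4:40279372-40279671 on the minus strand, held the ETS motif on its reverse strand, 232 bases before the start, and it was the called member with that motif. Ndufs6, at chr13:73328433-73328732 on the minus strand, held the NRF1 core 16 bases before the start and YY1 34 bases after, and was not called (log2 change 0.16 ± 0.07, adjusted p = 0.160).
Ndufb6: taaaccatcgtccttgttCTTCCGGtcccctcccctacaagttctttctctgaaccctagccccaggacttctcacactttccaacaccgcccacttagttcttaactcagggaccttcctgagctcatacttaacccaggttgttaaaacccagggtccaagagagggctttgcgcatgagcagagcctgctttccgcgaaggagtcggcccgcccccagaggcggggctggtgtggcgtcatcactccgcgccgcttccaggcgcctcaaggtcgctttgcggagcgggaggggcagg
Ndufs6: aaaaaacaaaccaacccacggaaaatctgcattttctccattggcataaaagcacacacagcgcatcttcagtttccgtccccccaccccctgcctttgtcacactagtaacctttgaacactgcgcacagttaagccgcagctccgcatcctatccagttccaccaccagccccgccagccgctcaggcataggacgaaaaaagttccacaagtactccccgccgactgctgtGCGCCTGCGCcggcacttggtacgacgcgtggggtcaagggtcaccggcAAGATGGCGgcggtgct

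Each mouse was then read on its own, with 1 mean per mouse and bone and a shared spread. In mouse 7, 18 members were called higher and 1 lower, beside 4.37% and 5.36% of all genes, and the median log2 change was 0.11. In mouse 19, 3 were called higher (Atp5g1, Atp5g3 and Cox5a) and 0 lower, beside 2.96% and 2.21% of all genes, and the median was 0.07. At an unadjusted p under 0.05, 16 members were positive and 0 negative in mouse 19, beside 8.85% and 8.33% of all genes. Every tibia library exceeded every femur library for 39 members in mouse 7, beside 12.2% of all genes, and for 19 in mouse 19, beside 10.8%. The 18 of mouse 7 became 10 without its femur library 1 and 6 without its femur library 2. They became 10 without its tibia library 2 or 3. Over all genes the 516 of mouse 7 became 315, 317, 362 and 314 in the same order. The 3 of mouse 19 became 1 without its femur library 1, and 0 without its femur library 3 or its tibia library 2. Over all genes the 349 of mouse 19 became 236, 286 and 261 in that order.

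The member that fell in mouse 7 was Cox7a2l. It had 148, 157 and 181 CPM in the femur and 136, 146 and 145.5 CPM in the tibia, a log2 change of -0.18 ± 0.06 (adjusted p = 0.0371) with no overlap. In mouse 19 the femur had 145, 152 and 155 CPM and the tibia 146, 152 and 152 CPM, a change of -0.01. The call in mouse 7 was lost without femur library 2 or 3 or any of the tibia libraries of that mouse, and without femur library 1 of mouse 19.

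The test of the difference between the mice called 0 members in either direction, beside 4.74% of all genes. DESeq2 also called 0, and at an unadjusted p under 0.05 edgeR gave 7 members with the more positive change in mouse 7 and 1, Cox7a2l, with the more negative change there, beside 6.96% and 8.33% of all genes. The smallest adjusted p was that of Ndufa11, a membrane-arm accessory subunit of complex I, at 0.124. It had 27.6, 27.1 and 28.9 CPM in the femur of mouse 7 and 36.1, 34.7 and 34.3 CPM in its tibia. The mouse 19 libraries had 36.1, 36.8 and 39.1 CPM in the femur and 37.3, 39.9 and 38.2 CPM in the tibia, so the femur of mouse 7 was the bone that stood apart. Over the 88 members 63 (71.6%) were positive in both mice, beside 27.6% of all genes, and 62 (70.5%) had the more positive change in mouse 7, beside 48.6%. Pearson's r between the 2 mice was 0.38 over members and 0.30 over all genes, as a description across genes, which are not independent replicates.

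**Figure D5:**
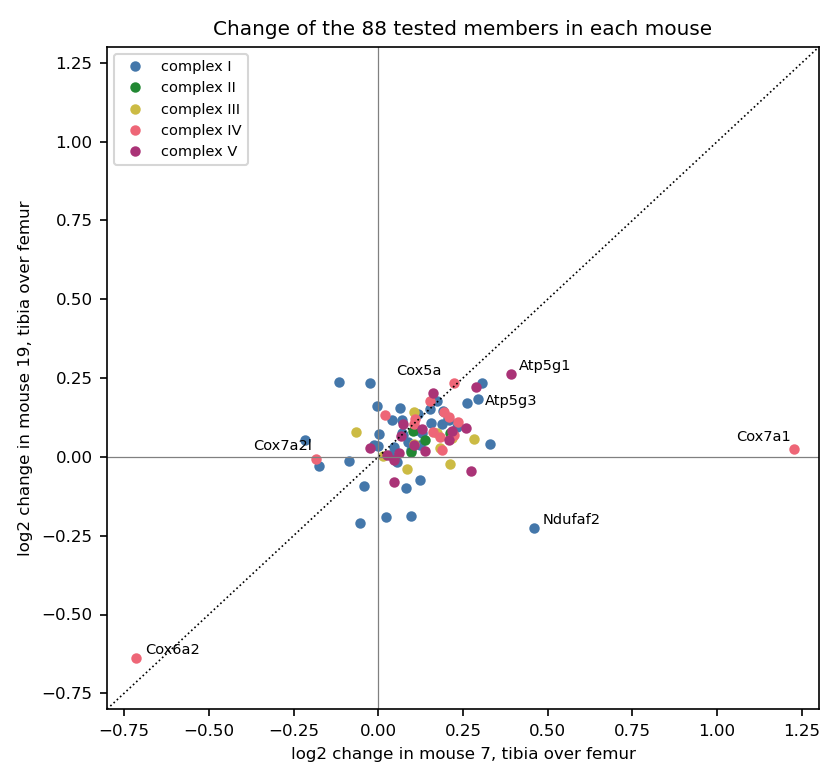
Log2 change, tibia over femur, of each of the 88 tested members in mouse 7 (x axis) and mouse 19 (y axis), coloured by complex, with a dotted line of equal change. Of the points, 63 lie above 0 on both axes and 62 lie below the dotted line; the far points Cox7a1 and Cox6a2 had at most 1.91 CPM.

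The untreated femurs themselves differed between the mice. In the femur of mouse 19, 20 members were called higher and 2 lower than in the femur of mouse 7, beside 14.1% and 14.3% of all genes, with a median log2 difference of 0.11. With 1 animal a side this compares these libraries and not kinds of mice, and it shares the femur libraries with the comparisons within each mouse. Without femur library 2 of mouse 7 the count higher was 11, and over all genes it went from 1668 to 1309. The testis isoform Cox6b2 had the largest difference of the 20, 0.65 ± 0.22 at low counts. Ndufa11 came next with 0.42 ± 0.07 (adjusted p = 5.5e-05), and Atp5g1 followed with 0.34 ± 0.08, beside its tibia change of 0.39 ± 0.08 in mouse 7. Ndufv3, an accessory subunit of the NADH-binding module, differed by 0.34 ± 0.07. The members called lower were Ndufaf4, at -0.60 ± 0.15 (adjusted p = 0.00317), and Atp5j2, the f subunit of the ATP synthase membrane part, at -0.36 ± 0.08 (adjusted p = 0.000544). Atp5j2 had 85.4, 68.8 and 89.1 CPM in the femur of mouse 7 and 58.8, 69.0 and 61.4 CPM in that of mouse 19, and the femur ranges overlapped at 68.8 to 69.0 CPM. Marker genes of other cells differed between the femurs as well. In the femur of mouse 19, 7 of 7 neutrophil genes, 7 of 7 granulocyte precursor genes and 6 of 6 genes of dividing cells were called higher, and 6 of 9 macrophage and monocyte genes lower and 1 higher. The neutrophil sum was 15957 CPM on average in the femur of mouse 7 and 24276 CPM in that of mouse 19. The part of these cells in the members' femur differences was not tested.

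Genes that serve the chain without being part of it were counted in the same fit over both mice. Of all genes tested there, 3.51% were called higher and 3.69% lower in edgeR. At an unadjusted p under 0.05, 9.60% were positive and 11.2% negative. Of 11 carriers and pores of the mitochondrial membranes, 3 rose and 0 fell, with a median log2 change of 0.11. They were the phosphate carrier Slc25a3 (0.11 ± 0.03), the ADP/ATP carrier Slc25a4 (0.14 ± 0.04) and the outer membrane protein Tspo (0.14 ± 0.03). Atpif1, the inhibitor protein of the ATP synthase, rose by 0.23 ± 0.04 (adjusted p = 0.00217). Of 30 assembly factors outside the symbol rule, 0 rose and 0 fell in edgeR, in DESeq2 or at an unadjusted p under 0.05, with a median of 0.00. Of 17 enzymes of the TCA cycle and pyruvate dehydrogenase, edgeR and DESeq2 called 0, and 3 were positive at an unadjusted p under 0.05, with a median of 0.05. Of 12 regulators of mitochondrial genes, among them Nrf1, Gabpa, Yy1, Esrra and Tfam, edgeR and DESeq2 called 0, and 1 was negative at an unadjusted p under 0.05, with a median of -0.01. The co-activator Ppargc1b had -0.69 ± 0.26 (adjusted p = 0.119) at 1.55 to 2.48 CPM as bone means. Mitochondrial ribosomal protein genes gave 1 call higher and 0 lower of 76, with a median of 0.09, and cytosolic ribosomal protein genes 6 and 0 of 92, with a median of 0.05.

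Other measures moved with these results. The macrophage and monocyte sum given above was lower in the tibia of mouse 7 with no overlap, and of its 9 genes 4 fell and 1 rose there, while in mouse 19 the sums overlapped and 4 rose and 1 fell. The summed CPM of 7 granulocyte precursor genes, made in immature marrow cells, was 821 to 873 in the femur and 1165 to 1404 in the tibia of mouse 7. In mouse 19 it was 1341 to 1664 and 1649 to 2032. Of these 7 genes, 6 rose over both mice and none was at 0. Of 7 neutrophil genes, 2 rose and 1 fell over both mice, and 1 rose and 1 fell in mouse 7. In mouse 19, 4 rose and 0 fell in edgeR, while DESeq2 called 0. Of all genes, 3.51% rose and 3.69% fell over both mice. The shares were 4.37% and 5.36% in mouse 7, and 2.96% and 2.21% in mouse 19. Ms4a3 rose by 0.69 ± 0.08 and Mpo, the granule enzyme myeloperoxidase, by 0.53 ± 0.09, each more than any called member. Of 6 genes of dividing cells, 5 rose in mouse 7 and 2 fell in mouse 19, and their sum was 2774 to 2943 CPM and 3098 to 3202 CPM in the femur and tibia of mouse 7 and 3298 to 3408 CPM and 2904 to 3192 CPM in those of mouse 19. Of 6 dendritic cell genes 3 fell over both mice, and of 6 erythroid genes 2 fell. The part of these cells in the members' changes was not tested. Short transcripts also stood higher in the tibia. Of 851 tested genes with an mRNA under 1000 bases, 7.76% were called higher, with a median log2 change of 0.07, beside 3.30% and -0.01 for longer genes. Members under 1000 bases gave 11 calls of 54 with a median of 0.11, and longer members 5 of 34 with a median of 0.06. A near-identical stretch in another annotated gene was found for 26 tested members, of which 8 were called, and for the other 62 members 8 were called. The search covered both strands and did not set aside genes that overlap a member at its own locus. Since the sources used here do not state how strand and multi-mapped reads were handled, levels of those 26 are uncertain. They include Atp5g1, Cox5a, Cox5b and Ndufb6, and also Cox4i1 and Atp5a1, while Atp5g3 and Cox7b had no such stretch. The part of length and of shared sequence in the changes was not tested.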

How the data were processed

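RNA-seq libraries of sorted macrophages were deposited by the authors as 1 table of raw read counts per gene, in whole numbers. The submitters' processing notes name HISAT2, featureCounts, Subread, bcl2fastq and DESeq2 with build mm10, and the sources used here do not state the settings for strand and multi-mapped reads. Of counts from 1 to 10, 69.8% were even, so fragments appear to be counted at both ends, and the floor of 3 fragments was set at 6 counts. Reads are not independent molecules, so this covers counting error only.

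Counts were scaled by TMM and fitted in edgeR 4.0.16 (R 4.3.3) over 11806 genes kept by filterByExpr with a minimum count of 10, with two-sided quasi-likelihood tests. Both-mice results had the mouse as a term, and within-mouse results 1 mean per mouse and bone. Standard errors are the absolute log2 change over the square root of F. The biological coefficient of variation was 6.26% and 5.51%. CPM and sums were computed from the TMM-scaled counts. Length is the median of RefSeq-linked transcripts in GENCODE, and promoter windows and coordinates come from RefSeq GRCm38.p6. The edgeR script was tested on simulated data. Alternatives were DESeq2 1.42.0, RLE scaling, other filters, halved counts, a replicate block, sums per animal, and each library left out.

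Named genes are core subunits and tissue isoforms, the largest called changes and the lowest change per complex, and the most abundant. Not every gene under that rule is reported here. Genes outside that rule (among them Ndufa11, Ndufs6, Atp5j2, Ndufv3 and Ndufaf4) were chosen after their values were seen. The members and lists were chosen with earlier results of these data known.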

Additional observations from a re-analysis of the deposited data

How the results depend on the processing

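The 16 members called over both mice kept their direction under every alternative run. For the other named members, direction was compared only where an alternative called the member, and 0 such values reversed. A change of sign in a member called in neither fit was not looked for. Of 16 members higher over both mice, 16 were shared by DESeq2 (18 called), 15 by RLE scaling (15 called), 14 by the fit without a filter (18 called), 16 by the filter of 5 CPM in 3 libraries (18 called) and 16 by halved counts (16 called). On counts summed per mouse and bone 0 were called, beside 0.407% of all genes called higher. With a library left out, 7 to 25 members were higher over both mice (284 to 498 over all genes). In mouse 7, 6 to 21 were higher and 0 to 1 lower (314 to 602 and 381 to 621 over all genes). In mouse 19, 0 to 4 were higher (226 to 365). From 0 to 1 had the more positive change in mouse 7 (147 to 234), with 1 without femur library 3 of mouse 7. In the femur of mouse 19, 11 to 26 were higher (1309 to 1760). Fewer libraries leave fewer degrees of freedom, and the cause of each loss was not tested. With the replicate block, 12 members were called higher over both mice, all 12 among the 16. Same-numbered libraries of a mouse did not deviate together (correlations of -0.0474 to 0.000594), no sample correlated best with its own number, and the numbers are taken only as names. Members under about 0.5 CPM in these libraries lie near the limit that a count of 0 allows.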
